A study of Mus musculus with 12 samples.

Results

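Mammary tumours of mice carrying an activated neu (ErbB2) transgene were set against a common reference RNA, and the genes that stood high or low against it in the tumours of every strain are described here. All 12 tumour pools of the series were used, 12 of 12, on 24 arrays. Each pool combined RNA of 5 tumours in equal amounts, taken from female mice 6 weeks into tumour bearing, and each of 6 strains gave 2 pools from 10 tumours. The parental strain is MMTV/neu NDL2-5 (NDL25). The MMTV promoter, active mainly in mammary epithelium, drives an altered receptor in NYPD and in YB, YC, YD and YE. As background, NYPD has lost the phosphorylated tyrosines of the ErbB2 tail, and each of the other 4 has 1 of them put back. Every group therefore carried a neu transgene, and no group was tumour-free mammary gland. The labels give no age for the mice.

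The other channel of every array held Universal Mouse Reference RNA, a commercial mixture made from cultured mouse cell lines of several tissues. A high ratio therefore sets a gene's share of RNA in whole tumours against its share in dividing cells in culture, and 1 reference mixture stands for all of them. The labels give both dyes for both channels, so the direction of the ratios is likely rather than stated. On both dyes 1 of the 2 orientation classes of arrays varied less between arrays, with a median SD over probes of 0.1425 against 0.2525 in Cy3 and 0.1607 against 0.2318 in Cy5 (log2 intensity), and that channel was taken as the common reference. Lalba and Krt8 then lay on the tumour side and Afp on the reference side on all 24 arrays. The test compared the mean of the 6 strains with the reference. It leaves out the reference's own spread and the spread between strains. In pooled whole tumours, fewer cells of a type and less RNA per cell cannot be told apart.

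ErbB2 is a receptor tyrosine kinase that pairs with other ErbB receptors, among them ErbB3, and signals through the Ras and ERK pathway. MMTV-driven tumours arise from the secretory epithelium of the gland, whose luminal cells keep tight junctions and keratin 8 and 18 filaments and make caseins when prolactin activates STAT5. Around them lie basal cells, fibroblasts, vessels, fat and immune cells, which are part of a whole-tumour RNA sample.

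Of 28515 genes tested, 2181 (7.65%) differed from the reference by more than 2-fold on average, 1080 higher (3.79%) and 1101 lower (3.86%), by limma's treat test with Benjamini-Hochberg adjusted p under 0.05. A gene passing that test is said to be called. In every one of the 12 pools, 711 genes (2.49%) were at a log2 ratio of 1 or more, which is at least 2-fold above the reference, and 676 (2.37%) were at -1 or less. All 1387 of these were called, and the other 794 called genes fell short of 2-fold in some pool. At 4-fold in every pool there were 222 genes above (0.779%) and 146 below (0.512%). The median ratio of all genes tested was 0.02 on the log2 scale, and 43.3% of them were on the same side of 0 in all 12 pools. Of the called genes 98.6% were on 1 side on all their arrays, while 20 were on opposite sides in different pools. The pools held between 1436 and 1726 genes 2-fold above the reference and between 1224 and 2162 below it, with the fewest below in NYPD pool 2 and the most in YE pool 2. The call averages over strains, so a called gene is not always high or low in each of them.

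The 15 named genes with the highest mean ratios were all 4-fold or more above the reference in every pool, and the 15 with the lowest were all 4-fold or more below it. Clca3a1, a secreted protein of the chloride channel accessory family, led at a log2 ratio of 5.28 ± 0.061, a 38.9-fold difference. Its pools ran from 4.25 over a median of 5.42 to 5.79, with an SD of 0.444. Each value after ± is an SE from the spread of pools within strains (n = 12 pools, 6 strains) and omits spread between strains. Ano1, a calcium-activated chloride channel, stood at 4.93 ± 0.040, with pools from 4.58 to 5.21. Cldn10, a claudin that forms ion-selective pores between cells, had a mean of 4.59 ± 0.057. The protease cathepsin H (Ctsh, 4.24 ± 0.043), the epithelial surface protein Plet1 (4.28 ± 0.057) and the interferon-inducible GTPase Iigp1 (4.47 ± 0.18) were also among them. Iigp1 ran from 2.78 in YB pool 2 to 5.53 in YC pool 2. St8sia6, a sialyltransferase, had a mean of 4.72 on its brightest probe and 0.86 on another, so its size depends on the probe. The 15 were picked among called genes above the reference on all their arrays, so none could have a pool at or below it.

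Among the genes with the lowest ratios, Ptgs2, the inducible cyclooxygenase, was at -4.09 ± 0.078 and its other probe at -3.25. Msln, the mesothelial surface protein mesothelin, was at -4.06 ± 0.048, and the pools closest to the reference were both of YB, the nearer at -2.69. Sema3a, a repellent guidance signal for axons, was at -4.05 ± 0.042, and Hmga2, a chromatin protein of fetal growth, at -3.93 ± 0.044. Jchain, which joins immunoglobulin chains in plasma cells, was at -3.95 ± 0.039. S100a4, a calcium-binding protein of motile mesenchymal cells, was at -3.66 ± 0.071. Its reference signal was saturated on 23 of 24 arrays, and what saturation did to the size of the ratio was not tested. For Bcat1 the brightest probe gave -3.72 and another -0.19, and for Rpl39l they gave -4.03 and -0.98.

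**Figure D1:**
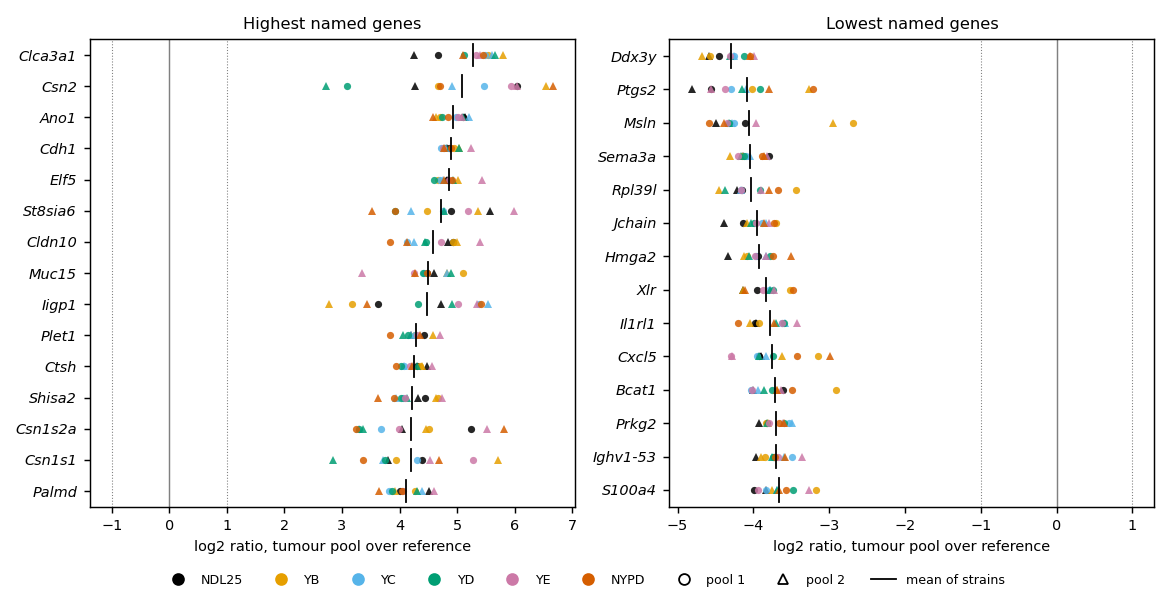
Log2 ratio of tumour pool over reference (horizontal axis) for the 15 highest named genes (left) and 14 of the 15 lowest (right). Each symbol is 1 of 12 pools, coloured by strain, with circles for pool 1 and triangles for pool 2, the black bar is the mean over strains and dotted lines mark 2-fold. All pools of the left genes lie above 2 and all pools of the right genes below -2, and Csn2 and Iigp1 have the largest SD on the left.

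Ddx3y, a helicase encoded on the Y chromosome, was among the lowest genes in these tumours of female mice. It stood at -4.30 ± 0.032, and its other probe at -2.94. A further 3 Y-linked genes were looked up after this value was seen. Eif2s3y, a translation factor subunit, was at -3.54 ± 0.040 and was called, whereas Uty (-0.90) and Kdm5d (-0.65), which encode histone demethylases, were below 0 in all 12 pools and not called. Among called genes past 4-fold on average and on 1 side of 0 on all their arrays, the least variable were Fmr1nb, Mgst1, Mapk13, Dbi and Spint2. Their SD over pools was between 0.107 and 0.130, and the tumour signal of Dbi was saturated on 17 of 24 arrays. Mgst1, a microsomal glutathione transferase, ran from 2.23 to 2.62 over the pools. In the same set, limited to genes on 1 side of 0 on all their arrays, the most variable were Odam, Lao1, Csn2, Scgb1b27 and Igtp. Their SD was between 1.08 and 1.74, and Lao1, Scgb1b27 and Igtp were under 2-fold in at least 1 pool.

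Genes were grouped into 44 lists by cell type or process, and 260 of the 923 distinct list genes tested (28.2%) were called, against 7.65% of all genes. The lists were chosen for the tissue and with earlier results of these data known, so that share says nothing beyond the genes in them. Luminal epithelial genes and milk genes had the highest list medians, and mesenchymal and replication genes the lowest.

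**Figure D2:**
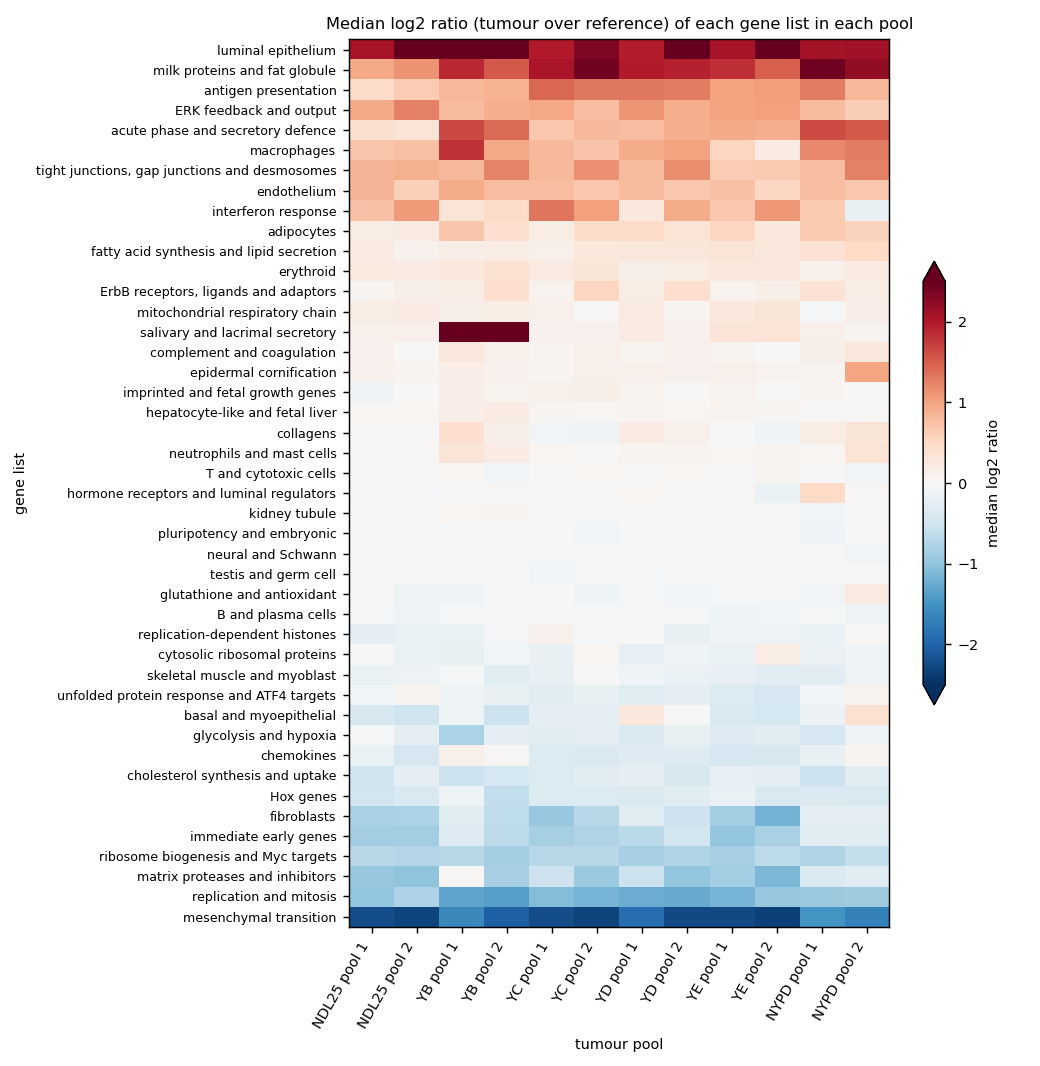
Median log2 ratio of tumour over reference for each of 44 gene lists (rows, ordered by their median over pools) in each of the 12 pools (columns). Red is above the reference and blue below, with the scale ending at 2.5 either way. Luminal epithelium is red and mesenchymal transition blue in all 12 pools, and the salivary list is deep red in the YB pools alone.

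All 6 markers chosen for luminal epithelium were called higher. They do not tell mammary epithelium from that of other glands, so they do not check the tissue label. Krt8 and Krt18, the keratins of simple epithelia, had log2 ratios of 1.63 ± 0.039 and 1.60 ± 0.027. Krt8 ran from 1.42 over 1.64 to 1.92 and its second probe gave the same mean. Cdh1, the adhesion protein E-cadherin, stood at 4.89 ± 0.045 (adjusted p = 1.01e-09), 29.6-fold above the reference, with pools from 4.72 over 4.84 to 5.24. Elf5, the transcription factor that sets the secretory luminal fate, stood at 4.86 ± 0.056, with pools from 4.61 over 4.82 to 5.43. Epcam was at 2.68 ± 0.069 and Cldn3 at 3.82 ± 0.042. Each of the 6 spanned less than 1 log2 unit over the 12 pools.

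Of 24 luminal genes, 17 were called higher and none lower, and those 17 were at least 2-fold above the reference in every pool. The list median was 2.29, from 1.96 in YD pool 1 to 2.84 in YB pool 2. Kit, the receptor of luminal progenitors, was at 4.07 ± 0.051, and the epithelial transcription factor Ehf at 4.0 ± 0.072. Esrp1, a splicing factor of epithelial cells, was at 3.83 and Grhl2, which maintains junction genes, at 3.36. The other probe of Esrp1 gave -0.02 and the 2 others of Grhl2 gave 0.30 and 0.72, so for both the size rests on 1 probe. Spint1 and Spint2, inhibitors of epithelial surface proteases, were both called, at 2.49 and 3.09. The 7 genes not called included Muc1 (0.17), Elf3 (-0.51) and Krt19 (-1.02).

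The opposite list, 17 genes of the mesenchymal state, held 12 called lower and 1 higher, with a median of -2.01 and a highest pool median of -1.50 in NYPD pool 1. Snai2 and Twist2, transcription factors that repress epithelial genes, were at -3.26 ± 0.092 and -3.28 ± 0.061. Lox, which cross-links collagen, was at -3.29 ± 0.087, with pools from -3.85 to -2.46. Cdh11, a mesenchymal cadherin, was at -3.18 on its brightest probe and at -2.89 and 0.16 on others, and Cdh2 (N-cadherin) at -3.16 on its brightest probe and 0.01 on another. Vim, the intermediate filament of mesenchymal cells, was at -1.40 ± 0.044. Tgfb3, a secreted growth factor of the TGF-beta family, was the only member called higher, at 2.67 ± 0.069, and was between 2.04 and 3.10 in all pools. Tgfb1 and Tgfb2 were not called.

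**Figure D3:**
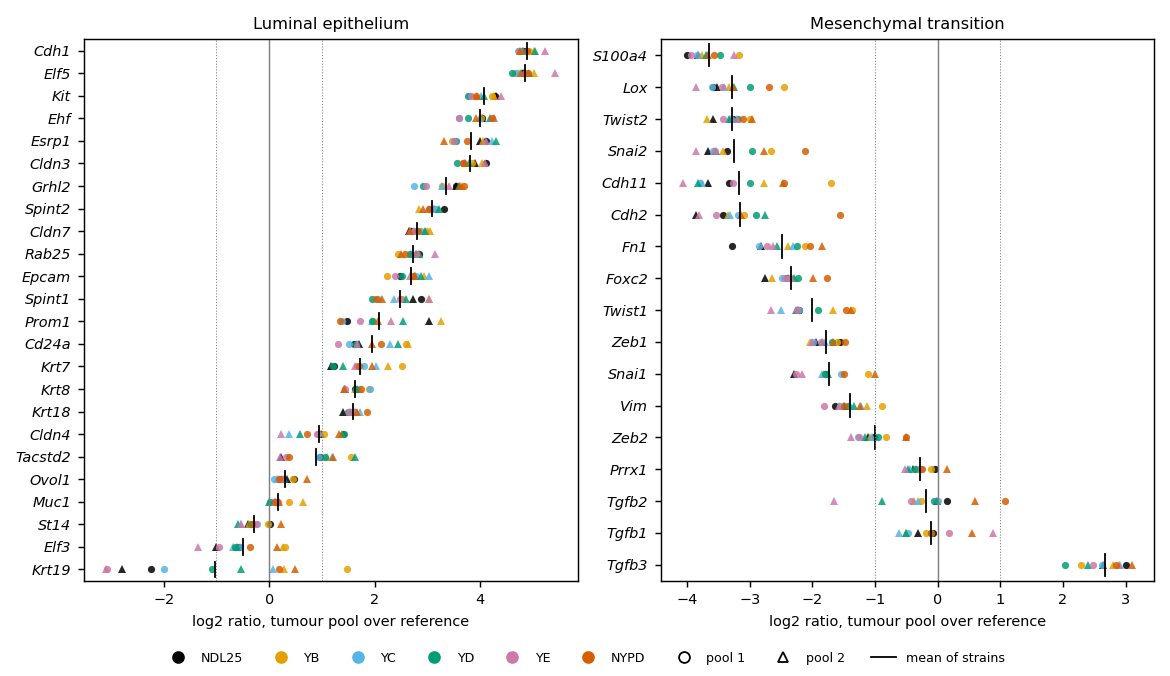
Log2 ratio of tumour pool over reference for all tested members of the luminal epithelium list (left) and the mesenchymal transition list (right). Symbols are the 12 pools, coloured by strain, with circles for pool 1 and triangles for pool 2, the bar is the mean over strains and dotted lines mark 2-fold. On the left 17 of 24 genes have all pools beyond 2-fold above the reference, and on the right 10 of 17 genes have all pools beyond 2-fold below it.

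Cell junction genes followed the luminal ones in number. Of 30 genes of tight junctions, gap junctions and desmosomes, 12 were called higher and 1 lower, with a median of 0.88. Claudins led the list: Cldn1 was at 3.93 ± 0.060, Cldn8 at 2.91 ± 0.11 and Cldn7 at 2.81 ± 0.023, besides Cldn10 and Cldn3. Pkp3, a desmosome plaque protein, was at 2.15 ± 0.059. Gap junction genes split: Gjb2 (connexin 26) was at 3.20 on its brightest probe and 0.46 on another, and Gja1 (connexin 43) was called lower at -2.47 ± 0.13. Gja1 ran from -3.31 to -0.53 over the pools, so it was under 2-fold in at least 1 of them.

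Of 18 genes for milk proteins and the fat globule, 11 were called higher and none lower, and 8 were at least 2-fold above the reference in every pool. The list median was 1.76, from 0.94 in NDL25 pool 1 to 2.43 in NYPD pool 1. STAT5 binds a palindrome of the form TTCNNNGAA, and the proximal promoters of Csn2 and Csn1s1 are shown because they are the caseins called higher with a match in the 150 bases before the start. Csn1s2a, also called, held a match in its 300-base window but not in that stretch. The sequences run up to the annotated start site in RefSeq, build GRCm38.p6, at chr5:87699426-87699575 on the minus strand and chr5:87666058-87666207 on the plus strand, and capitals mark the match.
Csn2: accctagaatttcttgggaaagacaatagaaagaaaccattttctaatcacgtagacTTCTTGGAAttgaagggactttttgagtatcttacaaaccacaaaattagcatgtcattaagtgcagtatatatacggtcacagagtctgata
Csn1s1: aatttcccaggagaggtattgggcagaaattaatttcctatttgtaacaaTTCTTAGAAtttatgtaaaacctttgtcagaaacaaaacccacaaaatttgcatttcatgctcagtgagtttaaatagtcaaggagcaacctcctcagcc
The match begins 93 bases before the start in Csn2 and 100 bases before it in Csn1s1. In 300-base windows, from 250 bases before to 50 after a start, 4 of the 11 milk genes with a window held the palindrome (36.4%), against 9.55% of 27025 genes. The match is a description of these letters and shows no binding.

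Csn2 (beta-casein) had a mean log2 ratio of 5.08 ± 0.24, 33.9-fold above the reference, with a lowest pool of 2.72, a median of 5.19 and a highest of 6.66. The lowest 2 pools were both of YD, and the highest was NYPD pool 2, whose value rests on 1 array because the other spot was marked by the scanner software. The tumour signal of Csn2 was saturated on 10 arrays, and arrays with the tumour in Cy5 gave a mean of 5.58 against 4.40 with it in Cy3. In NYPD pool 1 the arrays of the pair gave 6.72 and 2.68. The part of dye and saturation in the Csn2 spread was not tested. Csn1s1 and Csn1s2a, the alpha-caseins, were at 4.19 ± 0.19 and 4.20 ± 0.24. Their tumour signals were saturated on 8 and 10 arrays, and Csn1s2a had values on 23 arrays. With the tumour in Cy5 their means were 4.87 and 4.85, against 3.51 and 3.35 with it in Cy3. Lalba, the lactose synthase subunit, was at 2.59 ± 0.14. Lalba was above the reference on all 24 arrays, from 1.06 to 3.37 over the pools. Ltf (lactoferrin), an iron-binding protein of milk and neutrophils, was at 2.62 ± 0.066, and Muc15, a mucin of the fat globule membrane, at 4.49 on its brightest probe and 1.27 on another. Csn3 (1.33), Wap (1.17) and Glycam1 (0.90) were not called. Each of these had pools near 0 and others past 2-fold.

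Of 15 hormone receptors and luminal regulators, 2 were called higher and 1 lower, and the median was -0.01. Gata3, the luminal transcription factor, was at 2.10 ± 0.047, and Xbp1, a factor of secretory cells, at 1.67 ± 0.076. Wnt4, a signal that progesterone induces, was called lower at -1.62 ± 0.022, with all pools between -1.88 and -1.24. Stat5a (1.29) and Stat5b (1.13) were not called. The receptors Esr1 (-0.04) and Pgr (-0.01) were close to the reference, and Prlr was at 0.44 on its brightest probe but at 2.47 and 3.45 on its 2 others.

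Basal genes gave a mixed picture: of 17, 2 were called higher and 3 lower, with a median of -0.27. Itgb4, the hemidesmosome integrin, was at 2.79 ± 0.053 and had no pool under 2.34. The basal keratins were near the reference on average, Krt5 at 0.39 and Krt14 at -0.03. Krt14 ran from -0.55 to 2.01, and its mean changed sign in several alternative analyses. Trp63, the basal transcription factor, was at 0.46 and not called. Acta2 (smooth muscle actin) was called lower, at -1.63 on its brightest probe, and its 4 other probes ran from -1.55 to 0.14.

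Erbb2, the gene of the transgene, stood at 3.51 ± 0.25 on its brightest probe (adjusted p = 1.05e-04), 1.65 in the lowest pool, 3.92 in the median and 4.19 in the highest. On that probe NDL25 pool 1 (1.65) and YB pool 1 (1.85) were lowest, whereas pool 2 of these strains stood at 3.92 and 4.19. The remaining pools were at 3.42 or more. The 2 other probes of Erbb2 gave means of 0.18 and 0.71, and which of them detect the transgene's RNA is not stated in the labels. Erbb3, the partner receptor, was at 3.27 ± 0.055 on its brightest probe, but its 4 other probes were all between 0.07 and 0.18, so the call rests on 1 probe. Grb7, an adaptor that binds ErbB2 and whose gene lies next to it, was at 2.34 ± 0.043 with all pools past 1.78, and Egf at 1.96 ± 0.083. Hbegf, a ligand of Egfr and Erbb4, was the member called lower, at -1.65 ± 0.075. Of the 18 genes of the ErbB list 4 were higher and 1 lower, and Egfr itself was at 0.21.

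Genes switched on by ERK signalling differed by class. In the list of 15 ERK feedback and output genes, 5 were higher and 2 lower, and the median was 1.08. Phlda1, an early ERK target, was at 3.08 ± 0.097, and Dusp6, the phosphatase that turns ERK off, at 1.93 ± 0.083 with a lowest pool of 0.61. Etv1, an ETS factor, was at 1.78 ± 0.063, and Spry4, a feedback inhibitor, at 1.54 with another probe at 0.17. Fosl1, a subunit of the AP-1 factor, was at -3.16 ± 0.031 and under -2.87 in every pool. In the 19 immediate early genes, which serum and handling induce within minutes, 1 was called higher and 4 lower, with a median of -0.76. Fos was at -2.25 ± 0.082, Egr1 at -2.12 ± 0.12 and the matricellular signal Ccn1 at -2.53 ± 0.041. Those 3 genes were at least 2-fold below the reference in all 12 pools.

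Of 32 replication and mitosis genes 29 were below 0 in every pool, against 19.6% of all genes, and 13 were called lower and none higher. The median was -1.07, from -1.38 in YB pool 2 to -0.78 in NDL25 pool 2. Bub1, a kinase of the spindle checkpoint, was at -2.52 ± 0.064, with pools from -3.02 to -1.80. Aurkb, the mitotic kinase Aurora B, was at -2.04 ± 0.052, and Cdt1, which licenses replication origins, at -2.0 ± 0.026. The replicative helicase subunits Mcm2, Mcm3, Mcm4 and Mcm6 were called, at -1.38, -1.69, -1.35 and -1.18, whereas Mcm5 and Mcm7 were not. Mki67, the proliferation antigen, was at -1.04 ± 0.077 and ran from -1.51 to -0.37, and Pcna was at -0.29. Neither was called. Top2a, the replication topoisomerase, was at -2.25 on its brightest probe and -0.13 on another.

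The cell cycle genes homology region, TTTGAA, together with CCAAT boxes is a known arrangement of mitotic promoters. The 150 bases before the start of a pair of called members that hold both are shown, on GRCm38.p6 at chr4:118437344-118437493 and chr11:99024190-99024339, both on the minus strand, with capitals for either motif on either strand.
Cdc20: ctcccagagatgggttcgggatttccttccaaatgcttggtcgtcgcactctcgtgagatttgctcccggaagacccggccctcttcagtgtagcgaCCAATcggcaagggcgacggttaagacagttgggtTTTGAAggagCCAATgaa
Top2a: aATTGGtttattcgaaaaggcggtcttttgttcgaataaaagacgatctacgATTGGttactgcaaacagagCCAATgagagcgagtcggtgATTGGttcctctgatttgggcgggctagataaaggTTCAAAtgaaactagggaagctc
Cdc20, the activator of the anaphase-promoting complex, had a mean ratio of -1.20 ± 0.045, from -1.67 to -0.89. Of the 27 list genes with a 300-base window, 12 held TTTGAA (44.4%, against 20.2% of all genes) and 21 held CCAAT (77.8%, against 41.1%). The share is a count of letters over a list picked for its function.

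**Figure D4:**
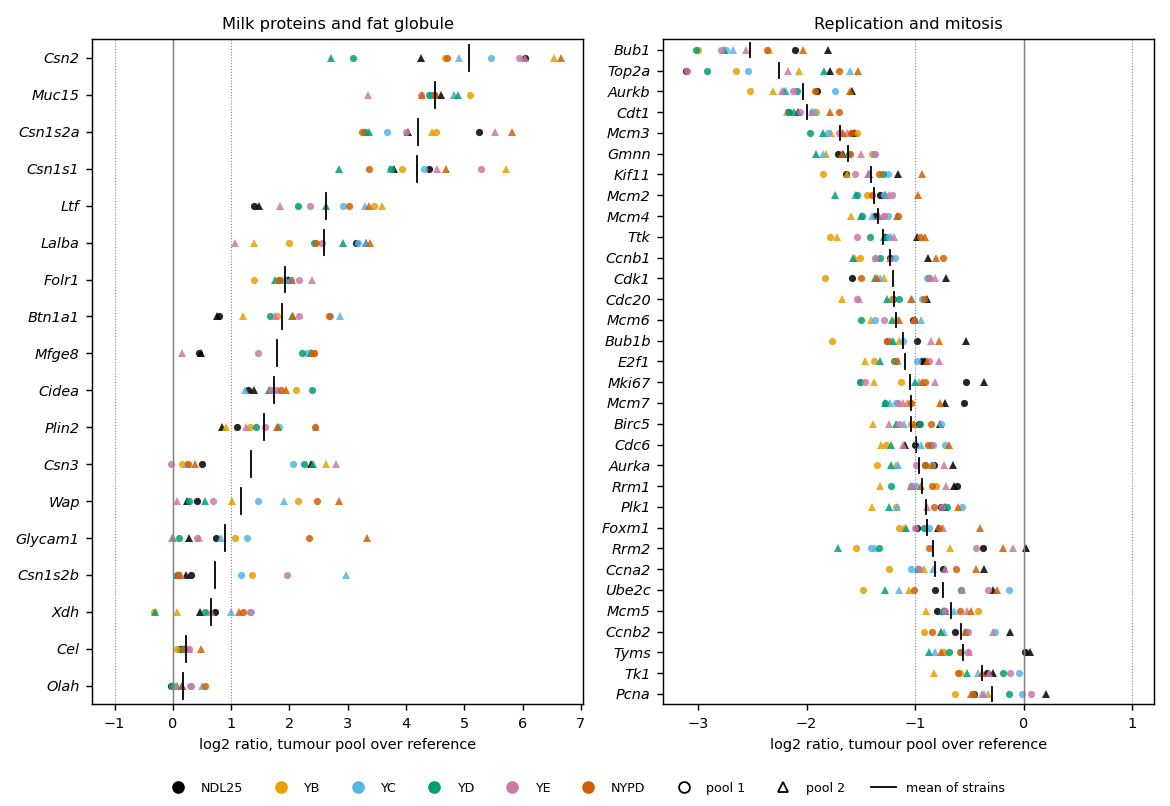
Log2 ratio of tumour pool over reference for all tested members of the milk list (left) and the replication and mitosis list (right). Symbols are the 12 pools, coloured by strain, with circles for pool 1 and triangles for pool 2, the bar is the mean over strains and dotted lines mark 2-fold. Milk genes spread over several log2 units between pools, with Csn2 from 2.72 to 6.66, while 29 of 32 replication genes have every pool below 0.

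Of 22 ribosome biogenesis and Myc target genes, 20 were below 0 in all pools and none was above 0 in all. Of all genes 19.6% were below 0 and 23.7% above 0 in all pools. The list median was -0.84, and 9.09% of the list was called, against 7.65% of all genes. Only Odc1, the first enzyme of polyamine synthesis (-1.89 ± 0.064), and Cad, which starts pyrimidine synthesis (-1.29, with 3 other probes from -1.29 to 0.01), were called. The 28 cytosolic ribosomal protein genes had a median of -0.08 and none was called, but 23 of them were saturated in the reference channel on at least 12 arrays. The 27 respiratory chain genes had a median of 0.10 and none called, between -0.43 for Sdhb and 0.75 for Uqcrfs1. In both lists limma's treat test gave 0 genes with an unadjusted p under 0.05. Of 13 replication-dependent histone genes, 1 was called (7.69%, against 7.65% of all genes).

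Of 22 fibroblast genes 8 were called lower and 5 higher, with a median of -0.55. Pdgfra, a growth factor receptor of fibroblasts, was at -3.32 ± 0.090 with another probe at -0.24, and Ogn, a small matrix proteoglycan, at -3.33 ± 0.11. Cxcl12, a stromal chemokine, was at -2.97 ± 0.052 but ran from -3.98 to -0.94. Among those higher, Cxcl14 was at 2.13 ± 0.12, Mfap4, a microfibril protein, at 1.59 ± 0.080, and Postn (periostin) at 2.18 with another probe at 0.02. The defining markers Col1a1 (-1.45, from -2.85 to 0.11) and Dcn (-1.32) were not called over all 12 pools. Col1a1 was called without the YB pools (-1.62, adjusted p = 0.013) and without the NYPD pools (-1.71, adjusted p = 0.0361), by limma in alternatives chosen after the values were seen.

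Of 31 collagen genes 5 were called higher and 3 lower, and the median was 0.18. Those higher included all 3 chains of collagen IX, a cartilage collagen: Col9a1 at 3.82 ± 0.073, Col9a2 at 2.02 ± 0.063 and Col9a3 at 1.83 ± 0.14. Col11a1, of the cartilage collagen XI, was at 3.32 ± 0.080, with a lowest pool of 2.62. Col14a1, whose collagen binds to fibrils in connective tissue, was the other, at 2.20 with pools from 1.36 to 3.03. Those lower were Col1a2 (-1.68), Col5a1 (-1.91, other probe 0.25) and Col6a1 (-2.04 ± 0.057). The basement membrane chains Col4a1 and Col4a2 were at 0.52 and 0.45 and not called. Of 24 matrix proteases and inhibitors 2 were higher and 5 lower. Mmp15, a membrane-bound metalloprotease, was at 3.39 ± 0.051, from 3.10 to 3.69, and the inhibitors Timp1 and Timp2 were at -1.36 ± 0.056 and -2.13 ± 0.048.

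Vessels and fat stood above the reference in part of their genes. Of 22 endothelial genes 9 were called higher and 1 lower, with a median of 0.66. Kdr, the VEGF receptor, was at 2.29 ± 0.046, Cdh5, the cadherin of vessel walls, at 2.13 ± 0.077 and Emcn (endomucin) at 1.96 ± 0.043. Pecam1, a marker of all endothelium, was at 0.12 and not called, and Cd34 was lower at -1.64 ± 0.046. Of 17 adipocyte genes 6 were higher. Cfd (adipsin) was at 3.95 ± 0.096, with pools from 2.64 to 4.98, the lipid carrier Fabp4 at 2.89 ± 0.065 and the hormone Adipoq at 1.40 ± 0.060. Plin1, which coats the lipid droplet of fat cells, was at 0.27 and not called. Red cell genes were present: Hba-a1 and Hbb-bt, adult globins, were at 3.31 ± 0.071 and 3.12 ± 0.10, and 5 of 14 erythroid genes were higher.

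Of 21 macrophage genes 8 were called higher and none lower, and the median was 0.85, from 0.20 in YE pool 2 to 1.80 in YB pool 1. The complement chains C1qa, C1qb and C1qc were at 2.03 ± 0.097, 2.02 ± 0.066 and 3.09 ± 0.033. Apoe, a lipoprotein of macrophages and other cells, was at 3.20 ± 0.040 and Mrc1, the mannose receptor, at 2.76 ± 0.079. The general markers Csf1r (0.31), Adgre1 (-0.18) and Cd68 (-1.10) were not called. Lymphocyte lists had medians near 0, -0.05 for B and plasma cells and 0.03 for T and cytotoxic cells, and a few low members. Of 17 B and plasma cell genes 5 were called lower and none higher, among them Jchain, Mzb1 (-3.44 ± 0.029) and Pou2af1 (-3.28 ± 0.068). The defining B cell marker Cd79a (0.06) was not called. Of 22 T and cytotoxic cell genes 6 were lower and 1 higher. Tcf7, a T cell transcription factor, was at -3.32 ± 0.056 and Gzmb (granzyme B) at 1.37 ± 0.073, while Cd3e (0.31) and Cd3d (0.11) were near the reference. No gene of the 15 for neutrophils and mast cells was called by limma's treat test, and 2 of them had an unadjusted p under 0.05, 1 higher and 1 lower. S100a8, a neutrophil protein, ran from -2.26 to 3.24 over the pools and S100a9 from 0.73 to 3.34.

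Of 18 antigen presentation genes 8 were called higher and none lower. H2-Aa and H2-Ab1, chains of the MHC class II molecule, were at 2.82 ± 0.036 and 2.25 ± 0.046, and the class I genes H2-D1 and H2-K1 at 1.86 ± 0.030 and 1.28 ± 0.040. These 4 genes were above 2-fold in every pool. MHC genes differ between mouse strains, and the match of the probes to the alleles of tumours and reference was not tested. Of 27 interferon response genes 5 were called, all higher, and none was at least 2-fold above the reference in all pools. Ifih1, a sensor of viral RNA, was at 2.02 ± 0.14, from 0.74 to 2.66. The list median ran from -0.18 in NYPD pool 2 to 1.33 in YC pool 1.

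Secreted defence proteins and chemokines also divided. Of 18 acute phase and secretory defence genes 8 were higher and 2 lower. Pigr, which carries IgA across epithelium, was at 3.30 ± 0.086, the chitinase-like protein Chil1 at 2.93 ± 0.083 and Lbp, which binds bacterial lipopolysaccharide, at 2.38 ± 0.037. Saa3, an acute phase protein, was lower at -2.47 ± 0.14, from -3.52 to -0.54. Among 24 chemokines 4 were higher and 8 lower. Ccl8 (2.73 ± 0.090), Ccl6 (2.64 ± 0.070), Ccl11 (2.10 ± 0.10) and Cxcl14 were higher in all pools. Cxcl5 (-3.75 ± 0.052), Ccl3 (-3.58 ± 0.073), Ccl2 (-2.52 ± 0.053) and Cxcl1 (-2.21 ± 0.057) were among those lower, and they attract neutrophils or monocytes. Of 21 complement and coagulation genes 5 were higher, led by the inhibitor Serping1 at 2.76 ± 0.054, and 4 lower, among them the proteases C1ra and C1s1 at -1.84 ± 0.12 and -1.91 ± 0.065.

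In metabolism, a few genes stood far from lists that were near the reference. Of 24 fatty acid genes 4 were higher: Srebf1, the transcription factor of lipid synthesis, at 2.90 ± 0.053, Thrsp at 2.86 ± 0.14, the desaturase Scd1 at 2.39 ± 0.13 and Me1, which supplies NADPH, at 2.14 ± 0.053. The synthases Fasn (0.75) and Acaca (0.14) were not called. Of 24 cholesterol genes 1 was higher, the reductase Dhcr7 (1.74 ± 0.036), and 2 were lower, among them Msmo1 (-1.48 ± 0.063). In 24 genes of glycolysis and hypoxia, 3 were higher and 5 lower. Aldoc, an aldolase isozyme, was at 3.40 ± 0.029 with pools from 3.09 to 3.61, while the glucose transporter Slc2a1 was at -1.33 ± 0.059 and the hypoxia gene Bnip3 at -1.97 ± 0.083. Of 29 genes of the unfolded protein response and ATF4, 2 were higher and 3 lower, and the serine synthesis enzymes Phgdh (-1.85 ± 0.061) and Psat1 (-1.51 ± 0.066) were among those lower. Of 28 glutathione and antioxidant genes 3 were higher and 5 lower, with Gclc, which makes the precursor of glutathione, at -1.39 ± 0.070.

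Lists for tissues that the reference may hold differed. The liver, testis, kidney and pluripotency lists each had 1 gene called lower, while the muscle, Hox and imprinted lists had several. Afp, a fetal liver protein, was at -2.81 ± 0.048, but 4 of 24 liver genes were higher, led by Apoc1 at 4.09 ± 0.084, and the list median was 0.08. Rhox5, a homeobox gene of the testis and placenta, was at -3.44 ± 0.058. The other 19 testis genes included 1 called higher, so 10% of that list was called. Wt1, a transcription factor of kidney and mesothelium, was at -3.11 ± 0.059. It was the only one of 18 kidney genes called (5.56%, against 7.65% of all genes). Of 22 muscle genes 5 were lower and 1 higher. Among those lower were Myf5, a myoblast factor, at -2.29 ± 0.047 and Tnnt1 at -2.66 ± 0.056, but Myog was at 0.05. The gene called higher was Myh4, which lost the call when any of 10 single pools was left out. Of 19 pluripotency genes 1 was called, lower (5.26%). Hox genes had more: 10 of 34 were called lower and none higher, with Hoxa11 at -2.45 ± 0.068, Hoxc9 at -2.37 ± 0.053 and Hoxd8 at -1.92 ± 0.060. Of 20 imprinted and fetal growth genes 5 were lower, with Hmga2, the RNA-binding protein Igf2bp2 (-3.25 ± 0.090), Dlk1 (-2.32 ± 0.022) and the growth factor Igf2 (-2.32 ± 0.055) among them, and none was higher. H19, which shares an imprinted locus with Igf2, was at 0.15.

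Salivary and lacrimal genes set the YB pools apart. Of 16 such genes 4 were called higher. Aqp5, a water channel of gland cells, was at 3.33 ± 0.051 with all pools between 2.84 and 3.73, and Dcpp1, a demilune cell protein, was at 3.75 ± 0.21 with pools from 2.15 to 4.79. Prpmp5, a proline-rich salivary protein, was at 5.98 and 6.10 in the YB pools and its median over all pools was 0.13. It was called on the mean of strains at 1.13 ± 0.020, and without the YB pools its ratio was 0.15 and it was not called. The list median was 3.66 in YB pool 2 and 0.07 in NYPD pool 2, and without the YB pools it was 0.19 against 0.83 with them. The luminal list median without the YB pools was 2.20. Of 18 neural and Schwann genes 2 were called higher (11.1%), and of 19 cornification genes 1 was (5.26%), against 7.65% of all genes called. Sox10, a neural crest factor, was at 1.61 ± 0.066 with another probe at 0.38. S100b was at 2.01 ± 0.064 and Calml3, a keratinocyte calmodulin, at 1.63 ± 0.050. The cornification list was at a median of 0.99 in NYPD pool 2 and at 0.14 over all pools.

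The size of the ratios depended on dye and probe more than their side did. Over all genes, the mean of the 12 arrays with the tumour in Cy5 correlated with that of the 12 arrays with it in Cy3 at r = 0.946. The genes called higher had a median of 1.98 with the tumour in Cy5 and 1.80 with it in Cy3, and the genes called lower had -1.66 and -1.64. Genes are not independent replicates, and the arrays of a pair share their RNA. For Clca3a1 the means were 5.76 and 4.80. Of 852 called genes with other probes, 90% had the mean of those probes on the same side, and 39.8% had it past 2-fold. The tumour signal was saturated on at least 1 array for 6.57% of the genes called higher. Each pool's value rests on the mean of both orientations, except where a spot was marked.

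**Figure D5:**
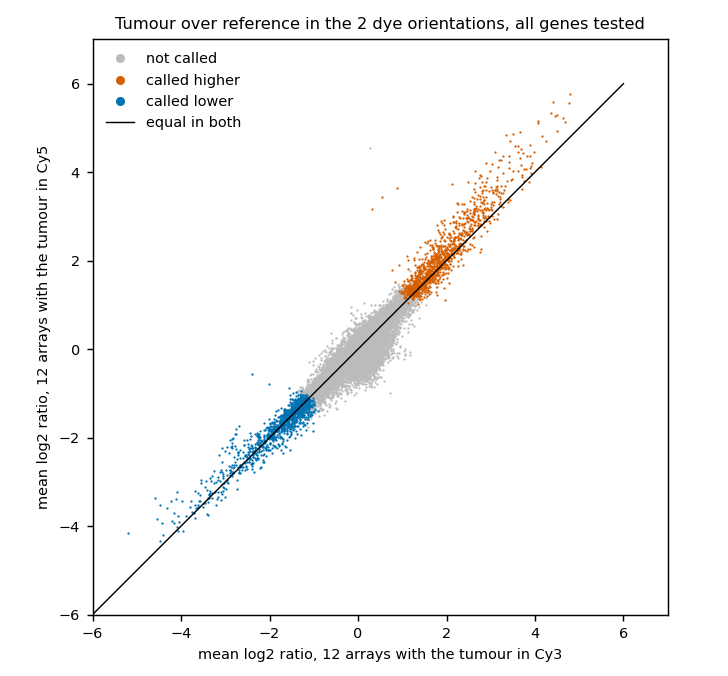
Mean log2 ratio of tumour over reference on the 12 arrays with the tumour in Cy5 (vertical axis) against the 12 arrays with it in Cy3 (horizontal axis), 1 point per gene tested. Orange points were called higher, blue points lower and grey points not called, and the line marks equal ratios. Called genes lie in the upper right or lower left, and at the top right the Cy5 ratios exceed the Cy3 ratios, as for Clca3a1 at 5.76 against 4.80.

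Median signals in the tumour channel lay between 364.8 and 763.5 units on the 24 arrays, where the local background was 39 to 64, and 97.28% to 98.86% of spots stood well above it. The number of pools limits the precision. A few genes were not well above background in 1 channel on all 24 arrays, and for them only a bound can be given. Plk4, the kinase that duplicates centrioles, was at least 3.97-fold lower in the tumours (adjusted p = 5.55e-06). Tmem229a and Slc15a5 were at least 1.93-fold and 1.87-fold higher, and neither was called. The sessions named here are the 3 days of feature extraction in the file headers. YC pool 2 had array 1 in session 1 and array 2 in session 2, and was counted in session 1. NDL25 and YB were wholly in session 2 and YD and YE wholly in session 1. Differences between those 2 pairs of strains therefore cannot be told apart from the session. NYPD was alone in session 3, so for NYPD the strain cannot be told apart from the session. Within that session 445 genes were called higher and 299 lower on 2 pools.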

How the data were processed

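Tumour RNA (500 ng per pool) was amplified in 1 round, labelled and hybridised with the reference on Agilent arrays, 2 with exchanged dyes per pool, per the labels' protocols. Per the file headers, the deposited scanner output gives each spot's mean intensity and the median intensity of its surroundings for either dye, along with processed signals and their log10 ratio from Agilent Feature Extraction. A further deposited value, 1 ratio per pool, was taken as log2. For it the submitters' processing notes list limma, RMA and R 2.3.0. The sources used here do not state its log base, and it correlated with the ratios computed here at r = 0.983 or above. No genome build is given for the probes.

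Background was corrected by normexp (offset 50) and arrays were normalized by loess (limma 3.58.1, R 4.3.3, files read by data.table, version 1.17.8). Marked spots were left out, arrays were put into orientation classes by their correlation (at least 0.79 within a class and at most -0.718 between classes), turned to tumour over reference and averaged per pool. Where 1 spot of a pair was marked, the pool rests on the other array, which touched 499 genes. Of 41174 probes, 2 were left out for marks, 575 for being well above background in either channel on fewer than 12 arrays and 12082 for a brighter probe of the gene. Probes took current symbols by accession (20739), symbol (5027) or synonym (5266), and 10142 kept the name in the file. A model with 6 strain means (6 residual and 1.76 prior degrees of freedom, n = 2 pools a strain) gave the mean over strains with its moderated SE, tested against a 2-fold ratio by treat. Pools of separate tumours are the replicates. On simulated data with 200 genes moved, the test recovered 100 of 100 at a log2 of 2 and 100 of 100 at 3, with 0 false calls. The unmoved genes were simulated well short of 2-fold, so false calls were unlikely by design. No gene was set near the threshold. The noise was normal with each gene's spread within strains, so the simulation does not cover spread between strains.

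The pools, gene lists and tests were chosen with earlier results of these data known. Named were the 15 highest and 15 lowest called genes on 1 side on all arrays, the 5 least and 5 most variable, Erbb2, markers, bounds, and up to 4 leading called members of each list with up to 3 called against it. List members outside this rule and the Y-linked genes were named after their values were seen. A few genes that the rule names are not reported here. Alternatives covered background, normalization, dye, probe choice, filters, saturation, session, pool number, scaling, fold threshold and leaving out pools.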

Additional observations from a re-analysis of the deposited data

How the results depend on the processing

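The counts of genes above and below the reference stayed within 1.5 times of the reported ones under other background correction, normalization, dye, probe and filter settings and with session as a random block. A fold threshold of 1.5 gave 1988 above and 2317 below, 4-fold gave 302 and 221, and a test against 0 gave 11412 and 9348. Within session 3, which holds 2 pools, 445 were above and 299 below, and fewer samples entered the fit. Within sessions 1 and 2 the counts were 844 and 966, and 736 and 742. With fewer pools to satisfy, 1092 genes were 2-fold above in every pool of session 3 and 1126 were 2-fold below in every pool of session 1. Without 1 pool the counts above ran from 1014 to 1059 and below from 1033 to 1112, and those 2-fold in every pool from 714 to 764 above and 678 to 741 below. Without both YB pools 1055 were above and 1102 below, and without both NYPD pools 1083 and 1129, in alternatives chosen after seeing the data. With pool number as a replicate block 1092 were above and 1123 below, and 2154 calls were shared. The main fit did not use pool number as a pairing. Deviations of same-numbered pools correlated from -0.172 to 0.708, with 7 of 15 pairs over 0.1, and what such pools share was not tested. Of the called genes named by rule, Fetub, Gsta3, Klf4, Lum, Myc, Myh4 and Prol1 lost the call without some pool (adjusted p up to 0.126). With the mean of all probes 20 lost it, with session as a random block 14 (Adipoq among them), and with the tumour in Cy3 alone 5 (Gzmb among them).

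Some means near 0 changed sign, and the cause was not tested. Krt14 became 0.044 under median centring, 0.043 with the tumour in Cy5 alone, 0.001 with session as a random block, 0.922 within session 3 and 0.062 when centred on ribosomal protein genes, and without 1 pool it ran from -0.211 to 0.151. Myl1 became -0.174 within session 1, -0.062 within session 3 and -0.061 without both YB pools, and without 1 pool it ran from -0.106 to 0.27. Cd79a became -0.072 in Cy5 alone and -0.04 within session 3, Myog -0.073 in Cy3 alone, and Pecam1 -0.01 within session 2. Within session 3, S100a8 was at 1.441 and Adgre1 at 0.048. List medians that changed sign were respiratory chain (-0.036, median centring), histones (0.103, Cy5 alone), kidney (-0.025 in Cy5 alone, -0.05 in session 3), glutathione (0.004 and 0.03, likewise), ribosomal proteins (0.056, Cy3 alone), basal (0.35, session 3) and neural (0.013, session 1). With the deposited ratios the chemokine median was 0.144 and the testis median 0.001, and the ribosomal protein list had no gene with a value in every pool. Centring on ribosomal protein genes, many of them saturated, moved the median of all genes to 0.112 and 57.5% of calls to the higher side, against 49.5%. It gave medians of 0.049 for testis, 0.072 for neural, 0.044 for B cell and 0.071 for pluripotency genes. Genes near background allow bounds only.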
